A study of Mus musculus with 2 samples.

Results

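NRF2 and the proteins that set its activity were followed as 7 transcripts in immune cells of mouse pancreatic islets: Nfe2l2, which encodes NRF2, its inhibitor Keap1, Sqstm1, the small Maf partners Maff, Mafg and Mafk, and Nqo1. The members were taken by symbol as regulators and partners of 1 pathway, and all 7 were found among the 31053 genes counted in both libraries. Per the labels, each library pooled islets of 6 to 8 chow-fed C57BL/6J males, and cells were sorted as DAPI-negative, Epcam-negative and CD45-positive, so that leukocytes were kept and epithelial cells and dead cells were gated out. One library carried the time label 1 week and the other the label 12 weeks. What the weeks count and the age of the mice are not given in the labels, and no genetic change or drug is named. A difference between the time labels has 1 library on each side and no replicate check, and pooling means that no value belongs to a single animal.

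NRF2 is a transcription factor that binds antioxidant response elements in DNA as a dimer with a small Maf protein and switches on genes of glutathione and thioredoxin metabolism, heme breakdown and NADPH supply. KEAP1 holds NRF2 and hands it to a CUL3 ubiquitin ligase for degradation; oxidants and electrophiles modify KEAP1 and let NRF2 escape. p62, the product of Sqstm1, is a cargo receptor of selective autophagy that can bind KEAP1 and draw it away from NRF2, and Sqstm1 is itself a target of NRF2. Control of NRF2 therefore lies largely in the stability of the protein, which a count of transcripts does not measure. Small Maf proteins lack an activation domain and pair with NRF2, with its relative NRF1 (Nfe2l1) or with the repressor BACH1. NQO1, a quinone reductase, is a classic readout of NRF2 in many tissues.

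The DNA just before the start sites is shown first, since the members include genes known to answer to NRF2. RefSeq gave windows of 250 bases before a start for all 7 genes, 9 windows in all because Maff has 3 starts. The antioxidant response element core TGACNNNGC, searched on both strands, was in 4 of the 9 windows and in 10.2% of 32851 windows of the same length over all genes. The matches lay 240 bases before the start in Nfe2l2, 13 in Mafk, 222 in Mafg and 112 at the first Maff start. The windows of Sqstm1, Nqo1 and Keap1 held no match. Each stretch below is from GRCm38.p6, written 5′ to 3′ in the direction of the gene, with the match in capitals. In Mafk and Mafg the match reads as the core on the opposite strand. Starts are those of RefSeq. The GENCODE Mafk gene begins further upstream, and by that annotation the Mafk match lies in an exon and not before the start. GENCODE exons of any gene, on either strand, covered 29 of 29 bases of the Nfe2l2 stretch and 30 of 47 of the Mafg stretch. Both stretches lie outside the GENCODE Nfe2l2 and Mafg genes themselves.
Nfe2l2, chr2:75704885-75704913, minus strand: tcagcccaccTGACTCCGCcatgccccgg
Mafk, chr5:139791478-139791535, plus strand: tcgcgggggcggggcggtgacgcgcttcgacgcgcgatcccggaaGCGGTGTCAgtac
Mafg, chr11:120633751-120633797, minus strand: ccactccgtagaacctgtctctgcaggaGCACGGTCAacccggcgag
Maff, first start, chr15:79346464-79346527, plus strand: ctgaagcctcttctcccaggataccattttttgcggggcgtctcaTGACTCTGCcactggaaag
Maff, second start, chr15:79347446-79347508, plus strand: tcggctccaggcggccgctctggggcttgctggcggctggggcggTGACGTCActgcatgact
The last stretch is shown for another motif: the cyclic AMP response element TGACGTCA lay 29 bases before the second Maff start, and 1.55% of all windows held one. The E-box CACGTGAC was in 2 of the 9 windows (Mafg and the second Maff start), against 1.85% of all windows, and the AP-1 site TGANTCA was in 0 of the 9, against 6.75%. Among 20 listed NRF2 target genes with a window, 6 held the antioxidant response element core (Blvra, G6pdx, Gclm, Mgst1, Prdx1 and Txnrd1). Counted by gene, 11.5% of all 27025 genes with a window held it. These are letter matches in a short window; distal elements lie outside it.

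In GRCm38 with the GENCODE annotation, Nfe2l2 (ENSMUSG00000015839) lies at chr2:75675513-75704641, Keap1 (ENSMUSG00000003308) at chr9:21229730-21239361, Sqstm1 (ENSMUSG00000015837) at chr11:50199366-50210827, Maff (ENSMUSG00000042622) at chr15:79346621-79359076, Mafg (ENSMUSG00000051510) at chr11:120625117-120633600, Mafk (ENSMUSG00000018143) at chr5:139791513-139802653 and Nqo1 (ENSMUSG00000003849) at chr8:107388225-107403206. Mafg overlaps Sirt7 on the same strand, so reads in the shared stretch are uncertain between them, and Nfe2l2 overlaps Gm24996, which is not among the genes counted. Sqstm1 overlaps Mrnip, Keap1 overlaps Gm16754 and Mafk overlaps Tmem184a on opposite strands.

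The 1-week library held 1551 barcodes with 12858754 UMIs (unique molecular identifiers, each standing for 1 captured transcript end), and the 12-week library 1867 barcodes with 12448628 UMIs. After filters 1340 and 1752 cells remained, with medians of 7392 and 6828.5 UMIs; 2 kept barcodes occurred in both libraries. Macrophages were the cells whose C1qa, C1qb and C1qc UMIs summed to 5 or more, and numbered 1243 and 1620. All 12 macrophage markers were detected in them in both libraries. In the 1-week library so were all 16 B cell, 17 T cell and 13 endocrine markers, so detection over this many cells does not separate classes. Cells with fewer than 5 C1q UMIs in clusters led by markers of other immune cells gave 17 and 33 dendritic-like, 26 and 29 B-like and 10 and 40 T-like cells. C1q transcripts stood in the other classes at 0.315% to 0.944% of their macrophage level, a limit the cut at 5 UMIs itself sets. Apoe, an abundant macrophage transcript that the cut did not use, stood there at 0.645% to 4.42% of its macrophage level. The 12 macrophage markers summed to 32154 and 35459 CPM in macrophages, of which Apoe gave 25602 and 29307. They summed to 5114 and 2690 CPM in dendritic-like cells and at most 1358 in lymphocytes. Lyz2, one of the 12, was higher in 1-week dendritic-like cells (3700 CPM) than in 1-week macrophages (2579). The 18 dendritic markers summed to 1734 and 1916 CPM in dendritic-like cells, against 170.9 and 164.0 in macrophages. Their detection did not separate the classes, with 16 of 18 in dendritic-like cells of each library and 18 and 15 in macrophages. Monocyte markers summed to 590.6 and 277.7 CPM in dendritic-like cells, 53.1 and 39.2 in macrophages and 775.8 to 958.2 in lymphocytes. No doublet caller was run: within the macrophage gate, 26 cells clustered by T cell genes, 16 by B cell genes and 7 by hormone genes.

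Nfe2l2 was high in macrophages and dendritic-like cells and low in lymphocytes. Its level in CPM, the gene's UMIs per 1000000 UMIs of the class, was 438.2 in 1-week macrophages (95% Poisson interval 426.2 to 450.6, counting error only, as for all intervals on levels and ratios here) and 572.8 in 12-week macrophages (559.0 to 586.9). Dendritic-like cells had 590.6 (477.2 to 722.7) and 666.5 (569.5 to 775.3) in the same order. B-like cells had 25.9 (8.40 to 60.4) and 44.4 (14.4 to 103.6), from 5 UMIs in each library, and T-like cells 33.04, from 1 UMI, and 169.3 (114.2 to 241.6). The macrophage values lay above every B-like and T-like value, and below the dendritic-like value of the same library. Between the lymphocyte classes the intervals overlapped at 1 week and did not at 12 weeks.

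The class difference was tested on counts summed per class and library with edgeR's quasi-likelihood test and Benjamini-Hochberg adjustment over 3117 genes, with the library as a block. Nfe2l2 was higher in macrophages than in the mean of the other classes, with a log2 fold change of 2.06 (SE 0.27, adjusted p = 8.06e-06 by edgeR). Against B-like cells it was 4.0 (SE 0.45, adjusted p = 2.60e-06 by edgeR) and against T-like cells 2.38 (SE 0.40, adjusted p = 0.000156 by edgeR). Against dendritic-like cells the log2 difference was -0.18 (SE 0.30, adjusted p = 0.732 by edgeR), so no difference was shown, and without the filter on low counts it was 0.01, where the median over all genes was 0.92. With the library as a block, the p-values measure how unevenly class differences repeat over 2 libraries that also carry different time labels. The fit had 3 residual degrees of freedom, and edgeR's sharing of information over genes raised the total to a median of 16.98.

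**Figure D1:**
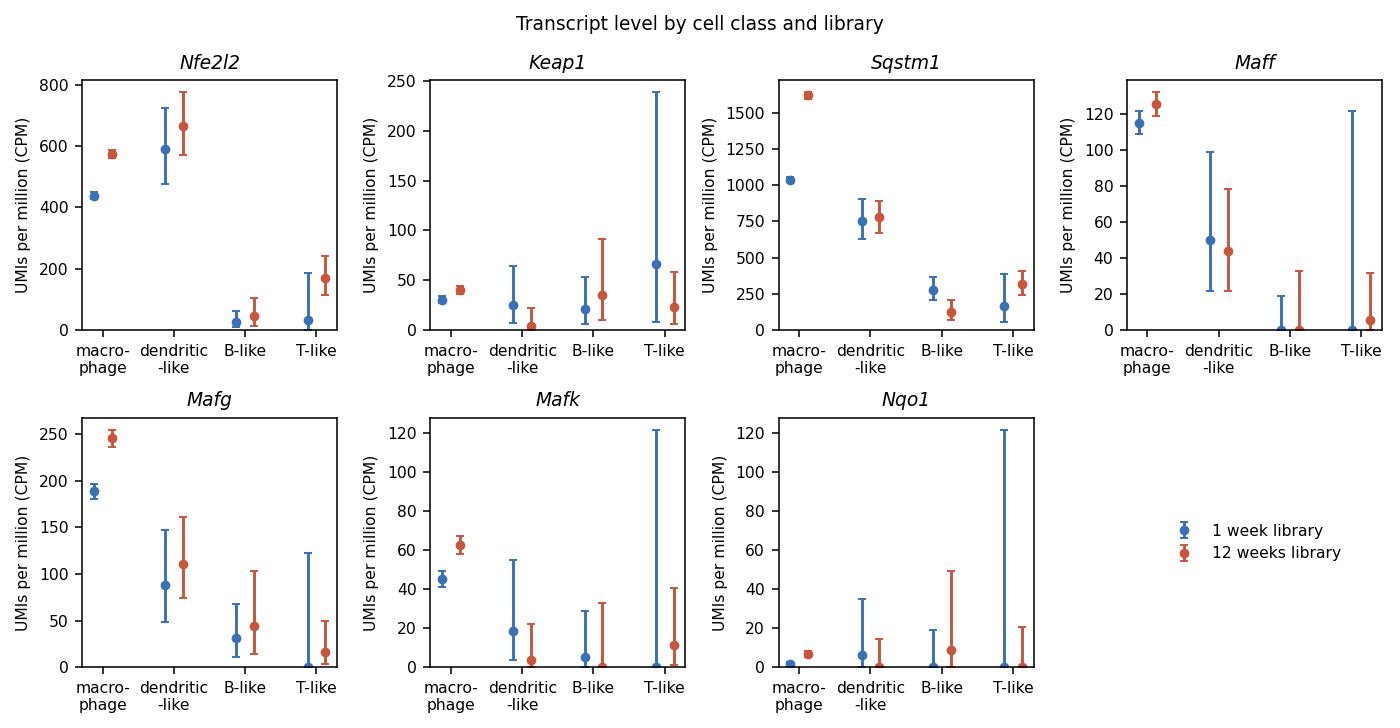
Level of each transcript in CPM (vertical axes, from 0) in macrophages and dendritic-like, B-like and T-like cells of the 1-week library (blue) and the 12-week library (red); bars are 95% Poisson intervals that cover counting error only. Nfe2l2 is not lower in dendritic-like cells (590.6 and 666.5) than in macrophages (438.2 and 572.8), whereas Sqstm1, Maff and Mafg are highest in macrophages of both libraries.

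Sqstm1, the gene of p62, had 1038 CPM in 1-week and 1622 CPM in 12-week macrophages. Dendritic-like cells had 753.9 and 777.6, B-like cells 279.3 and 124.3 and T-like cells 165.2 and 315.9. The macrophage value was the highest in both libraries, and the dendritic-like values came next. The log2 fold change over the mean of the other classes was 2.11 (SE 0.30, adjusted p = 1.80e-05 by edgeR). The difference from dendritic-like cells was 0.93 (SE 0.38, adjusted p = 0.0980 by edgeR) and missed the threshold; with the T-like profile of 1 week (10 cells) left out of the fit it passed, at 0.92 (adjusted p = 0.0313 by edgeR).

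Keap1, the substrate adaptor that inhibits NRF2, did not follow that order. Macrophages had 30.4 CPM (27.3 to 33.8) at 1 week and 40.0 (36.4 to 43.9) at 12 weeks, from 347 and 458 UMIs. Dendritic-like cells had 25.1 and 4.0, B-like cells 20.7 and 35.5 and T-like cells 66.1 and 22.6, from 1 to 4 UMIs each. The macrophage interval overlapped that of every B-like and T-like profile, and at 12 weeks lay above that of dendritic-like cells. Over both libraries together the ratio of macrophages to B-like cells was 1.35 (0.681 to 3.13), to T-like cells 1.22 (0.557 to 3.33) and to dendritic-like cells 2.90 (1.24 to 8.95). Keap1 did not pass the filter on low counts. Without that filter its log2 fold change over the mean of the other classes was 1.19 (adjusted p = 0.0395 by edgeR), in a fit where the median over all genes was 1.20. By DESeq2 it was 1.021 (adjusted p = 0.303) and did not pass the test.

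Of the small Maf genes, Mafg had 188.3 and 245.3 CPM in macrophages, 88.0 and 111.1 in dendritic-like cells, 31.0 and 44.4 in B-like cells and 0 and 16.9 in T-like cells. Macrophages were highest in both libraries. Mafg was 2.77 higher on the log2 scale than the mean of the other classes (SE 0.29, adjusted p = 6.30e-07 by edgeR) and 1.27 higher than dendritic-like cells (SE 0.30, adjusted p = 0.00574 by edgeR). Maff had 115.1 and 125.5 CPM in macrophages, 50.3 and 43.6 in dendritic-like cells, no UMI in either group of B-like cells and 1 UMI in all T-like cells. Maff was 1.52 higher on the log2 scale in macrophages than in dendritic-like cells (SE 0.36, adjusted p = 0.00582 by edgeR, but 0.0581 by DESeq2). Against B-like cells the ratio over both libraries was at least 12.3-fold higher, taking the floor of 3 UMIs over the group; the fitted value against a class without UMIs is no measure of size. Mafk had 45.1 and 62.5 CPM in macrophages, from 515 and 715 UMIs, and between 0 and 18.8 in every other profile, from at most 3 UMIs. It did not pass the filter on low counts; the ratio of macrophages to dendritic-like cells over both libraries was 5.53 (2.16 to 20.3).

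Nqo1 was near the limit of what these libraries can count. Macrophages held 22 UMIs at 1 week and 77 at 12 weeks, or 1.93 and 6.73 CPM. Dendritic-like cells had 1 and 0 UMIs, B-like cells 0 and 1, and T-like cells 0 in both. A count of 0 in the 12-week dendritic-like cells still allows 11.9 CPM, above the macrophage level, so no difference between classes was detectable at this depth.

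Only Nfe2l2, Sqstm1, Maff and Mafg of the 7 members passed the filter on low counts, and Maff passed only through macrophages, so that its call was partly fixed by the filter; the other 3 would pass on the other classes alone. All 4 were called higher in macrophages than in the mean of the other classes, where 26.7% of all genes tested were called higher and 12.6% lower (39.3% either way). Against B-like cells 4 of 4 were called higher, with 23.9% of all genes called higher and 14.6% lower (38.6% either way). Against T-like cells 4 of 4 were called higher, with 22.2% of all genes called higher and 12.7% lower (35.0% either way). Against dendritic-like cells the 2 called were Maff and Mafg, with 12.3% of all genes called higher and 7.89% lower (20.2% either way). With the cells of each cluster taken whatever their C1q, which adds cells with 5 or more C1q UMIs to the other classes, none of the 4 was called in any contrast; Nfe2l2 then had a log2 fold change of 0.90 over the mean of the other classes (adjusted p = 0.170 by edgeR) and Sqstm1 one of 1.25 (adjusted p = 0.0972 by edgeR).

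The genes known to be driven by NRF2 were set beside the members. Of 24 listed targets 19 were tested, and 19 were higher in macrophages than in the mean of the other classes, where 26.7% of all genes were. Their median log2 fold change was 2.55, against 0.01 over all genes. The filter favours genes that are high in macrophages: 6 of the 19, among them Cbr3 and Blvrb, passed only through them, and of the 13 that would pass on the other classes alone 13 were called higher, with a median of 2.52. Hmox1, the heme-degrading enzyme, had 1810 and 3758 CPM in macrophages, 226.2 and 174.6 in dendritic-like cells and at most 129.8 in lymphocytes, a log2 fold change of 4.80 over the mean (adjusted p = 2.56e-08 by edgeR). Srxn1, which repairs oxidised peroxiredoxins, was 3.97 higher on that scale, Txnrd1, the thioredoxin reductase, 2.99 and Gclm, a subunit of the first enzyme of glutathione synthesis, 2.35. The carbonyl reductase gene Cbr3 had 70.7 and 121.5 CPM in macrophages against at most 12.6 elsewhere, and Blvrb, a biliverdin reductase, 202.6 and 252.1 CPM against 53.3 or less. Against dendritic-like cells, where no difference in Nfe2l2 was shown, 13 of the 19 targets were called higher and 0 lower, with a median of 1.60. Over all genes tested, 12.3% were called higher and 7.89% lower there, with a median of 0.01. Of the 13 targets that pass without macrophages 8 were called higher, with a median of 1.20. Hmox1 was 3.90 higher (adjusted p = 2.35e-05 by edgeR), Srxn1 2.16 (adjusted p = 0.000483 by edgeR), Gclm 1.60 (adjusted p = 0.00659 by edgeR) and Txnrd1 1.14 (adjusted p = 0.0254 by edgeR).

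Relatives of NRF2 divided. Of 9 listed, 7 were tested against the mean of the other classes, 5 were higher, Maf among them, and 1 was lower. Over all genes tested, 26.7% were called higher and 12.6% lower. Bach1, a repressor that competes with NRF2 for small Maf partners, had 214.5 and 272.0 CPM in macrophages and was 2.36 higher on the log2 scale (adjusted p = 1.63e-06 by edgeR). Atf3, a stress-induced factor, was 3.1 higher (adjusted p = 2.18e-07 by edgeR). Maf, a large Maf factor, had no UMI in B-like cells, which its call over the mean (adjusted p = 0.0493 by edgeR) rests on; it had 198.3 and 62.1 CPM in T-like cells, above the 24.5 and 30.2 of macrophages. The lower one was Bach2, a lymphocyte repressor, at -1.03. Nfe2l1, the gene of NRF1, had 41.1 and 56.1 CPM in macrophages and did not pass the test (log2 difference -0.17, SE 0.28, adjusted p = 0.670 by edgeR).

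Partners that degrade NRF2 or bind KEAP1 gave 0 higher and 0 lower over the mean of the other classes, of 4 tested out of 12 listed. Cul3 and Rbx1 were among the 4. Over all genes tested, 39.3% were called either way there, and 4 genes are too few to set against that share. At an unadjusted p under 0.05, 1 was higher and 1 lower in the edgeR fit. Against B-like cells 1 of the 4 was called higher and 0 lower, where 23.9% of all genes were called higher and 14.6% lower. Of 15 selective autophagy genes 6 were tested and 3 were higher than in the mean of the other classes, where 26.7% of all genes were: Gabarapl1, Gabarap and Tfe3. Gabarapl1 and Tfe3 passed the filter on low counts only through macrophages. Against dendritic-like cells 0 of the 6 autophagy genes passed in the edgeR fit, 0 also at an unadjusted p under 0.05. Over all genes tested, 12.3% were called higher and 7.89% lower there, and 6 genes are too few to set against those shares. Immediate early and heat shock genes, which can rise while tissue is taken apart, were also higher in macrophages. Called higher were 13 of 15 against the mean of the other classes (26.7% of all genes) and 10 of 15 against dendritic-like cells (12.3% of all genes). Of the 12 that would pass the filter on low counts on the other classes alone, 10 and 7 were called higher in these contrasts. Hspa1a had 1585 and 2696 CPM in macrophages and at most 320.7 elsewhere. Their part in the class differences of the members was not tested.

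Detection in single cells was compared after each cell was thinned to 3000 UMIs, which left 1089 and 1530 macrophages and removed 154 and 90. Sqstm1 was detected in 84.3% of 1-week and 95.7% of 12-week macrophages, Nfe2l2 in 67.9% and 77.3%, Mafg in 39.2% and 44.9%, Maff in 23.5% and 27.8%, Mafk in 11.6% and 15.9%, Keap1 in 8.08% and 11.6% and Nqo1 in 0.459% and 1.31%. Without thinning the shares for Nfe2l2 were 83.4% and 90.7% and for Keap1 20.9% and 22.2%. In B-like cells, at the same depth, Nfe2l2 was detected in 1 of 24 and 1 of 17 cells (4.17% and 5.88%) and Maff in 0 of both, where 3 cells, the limit that a count of 0 allows, would be 12.5% and 17.6% of cells with a UMI at this depth. Dendritic-like cells had Nfe2l2 in 11 of 17 and 22 of 31 cells (64.7% and 71.0%), shares whose exact binomial intervals (38.3 to 85.8 and 52.0 to 85.8) contained those of macrophages. A separate random draw on the same 17 cells gave 88.2%, and at 2000 UMIs the 1-week shares were 64.7% in dendritic-like cells and 52.6% in macrophages, so the order of macrophages and dendritic-like cells is not fixed by these data. In T-like cells Nfe2l2 was detected in 0 of 4 cells at 1 week and 5 of 20 at 12 weeks.

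**Figure D2:**
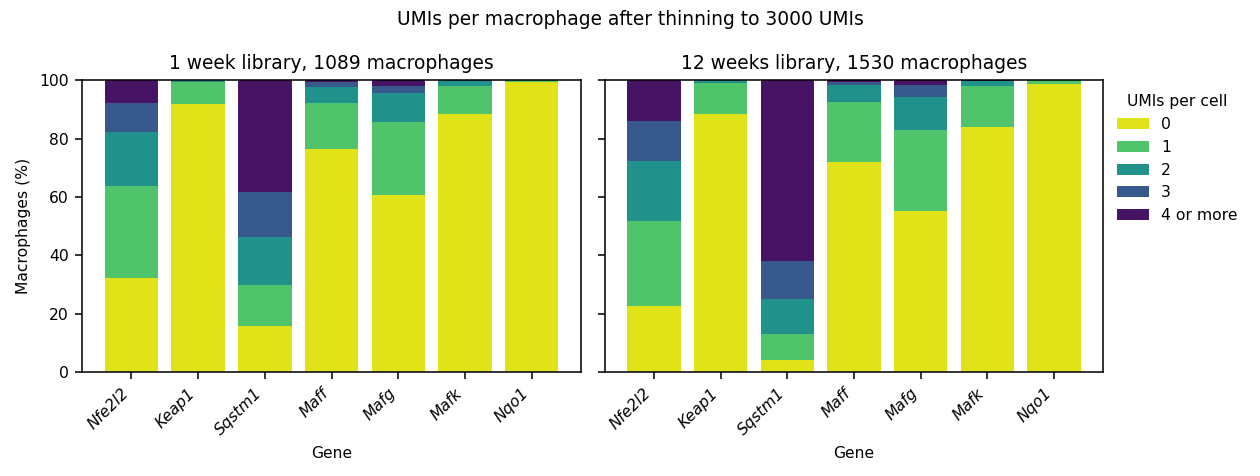
Share of macrophages (vertical axis, percent) with 0, 1, 2, 3 or 4 and more UMIs of each gene after thinning every cell to 3000 UMIs, in the 1-week (left) and 12-week (right) library. Sqstm1 reaches 4 or more UMIs in 38.3% of 1-week macrophages, and Keap1 has no UMI in 91.9% of them.

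The spread between macrophages differed among the genes. The variance over the mean of the thinned counts, which is 1 for pure counting noise, was 1.41 and 1.45 for Nfe2l2, 2.08 and 2.22 for Sqstm1, 1.51 and 1.32 for Maff, 1.52 and 1.34 for Mafg, 1.23 and 1.13 for Mafk and 1.02 and 1.05 for Keap1, in the order 1 week and 12 weeks. Hmox1, for comparison, had 8.49 and 9.55. The ratio grows with the mean, so it is given as a description of each gene and not as an order. Nfe2l2 and at least 1 small Maf transcript were detected together in 39.9% of 1-week and 48.9% of 12-week macrophages, where independent detection would give 37.3% and 49.5%. Nfe2l2 and Keap1 were together in 5.79% and 9.08%, against 5.48% and 8.94% if independent. The transcripts of NRF2 and its partners were thus found together about as often as their separate shares give.

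Across single macrophages at equal depth, Sqstm1 varied with the NRF2 target genes more closely than Nfe2l2 did. Correlations are Pearson's r on log2(UMIs + 1) over cells of 1 library; cells share the library and are not replicates. For Sqstm1 with Hmox1, r was 0.51 at 1 week and 0.45 at 12 weeks. With Txnrd1 it was 0.44 and 0.34, with Prdx1, a peroxiredoxin, 0.40 and 0.30, and with Srxn1 0.30 and 0.31. For Nfe2l2 with Hmox1, r was 0.11 and -0.05, and with Srxn1 0.10 and -0.03. Mafg stood between, with r of 0.35 and 0.30 for Hmox1. Maff had 0.18 and 0.17 with Hmox1. Nfe2l2 with Sqstm1 gave 0.18 and 0.03. Mean UMIs per cell at this depth were 3.11 and 4.94 for Sqstm1, 1.34 and 1.77 for Nfe2l2 and 0.606 and 0.702 for Mafg. Counting noise lowers r at small counts, and its part in the differences between these genes was not tested. For Keap1 and Nqo1 the values with all these genes lay at 0.12 or below, at counts too sparse to read. A median gene among those detected in at least 5% of macrophages had r of 0.00 with Sqstm1 in both libraries, and r of Sqstm1 with the cell's own UMI total before thinning was 0.07 and 0.05.

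**Figure D3:**
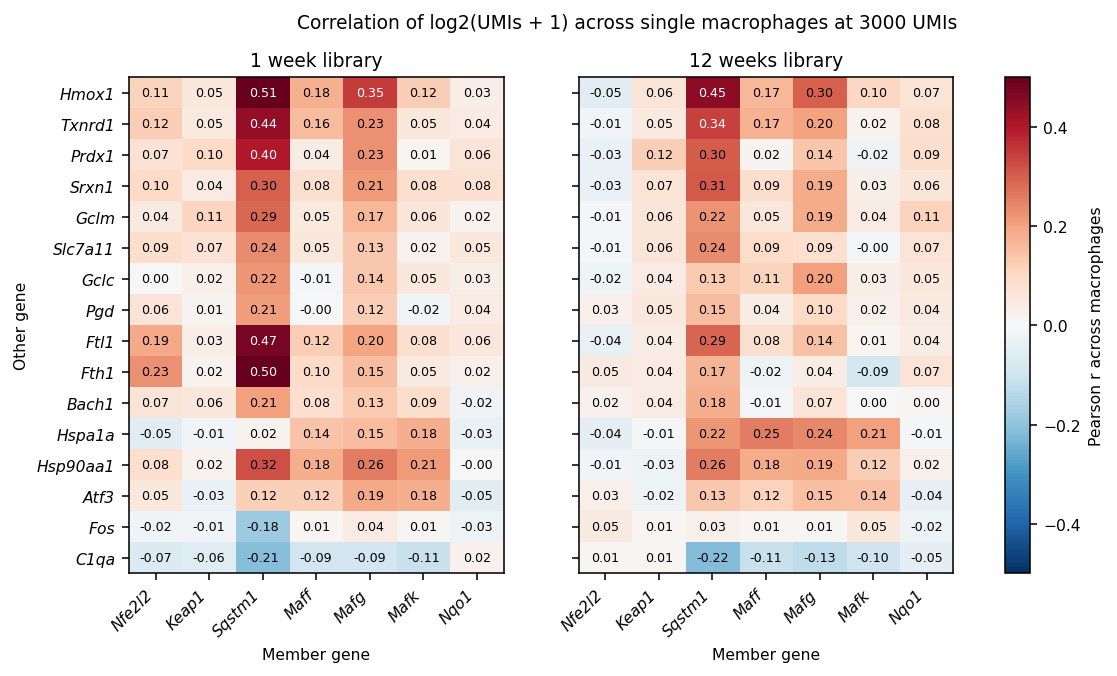
Pearson's r between each of the 7 genes (columns) and NRF2 targets, stress genes and C1qa (rows) across single macrophages thinned to 3000 UMIs, in the 1-week (left) and 12-week (right) library; red is positive and blue negative. The Sqstm1 column is the reddest in both libraries, with 0.51 and 0.45 for Hmox1, whereas the Nfe2l2 column reads 0.11 and -0.05 for Hmox1.

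The same was visible in UMIs. In macrophages with 0 or 1 Sqstm1 UMI the mean Hmox1 count was 2.02 at 1 week (326 cells) and 4.87 at 12 weeks (202 cells). It was 6.10 and 9.47 with 2 to 4 Sqstm1 UMIs, 9.02 and 14.2 with 5 to 9, and 13.2 and 19.2 with 10 or more (20 and 144 cells). Grouped by Nfe2l2 instead, the mean Hmox1 count was 4.73 and 12.2 with no Nfe2l2 UMI, 6.32 and 11.6 with 1, 6.39 and 11.9 with 2 or 3, and 4.52 and 10.0 with 4 or more. Mean Hmox1 was thus higher in each successive Sqstm1 group of both libraries, and followed no such order over the Nfe2l2 groups. Txnrd1 was ordered likewise over the Sqstm1 groups, from 1.04 to 3.30 at 1 week and from 1.64 to 4.31 at 12 weeks. Srxn1 went from 0.30 to 1.00 over the first 3 Sqstm1 groups at 1 week and was 0.90 in the last, of 20 cells. Over the Nfe2l2 groups at 1 week, Srxn1 went from 0.54 to 0.74 and Txnrd1 from 1.69 to 2.27; at 12 weeks both were lowest in the group with 4 or more Nfe2l2 UMIs, at 1.24 and 2.59. C1qa, a macrophage gene outside the pathway, went from 14.1 to 8.45 at 1 week and from 11.9 to 7.95 at 12 weeks over the Sqstm1 groups.

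**Figure D4:**
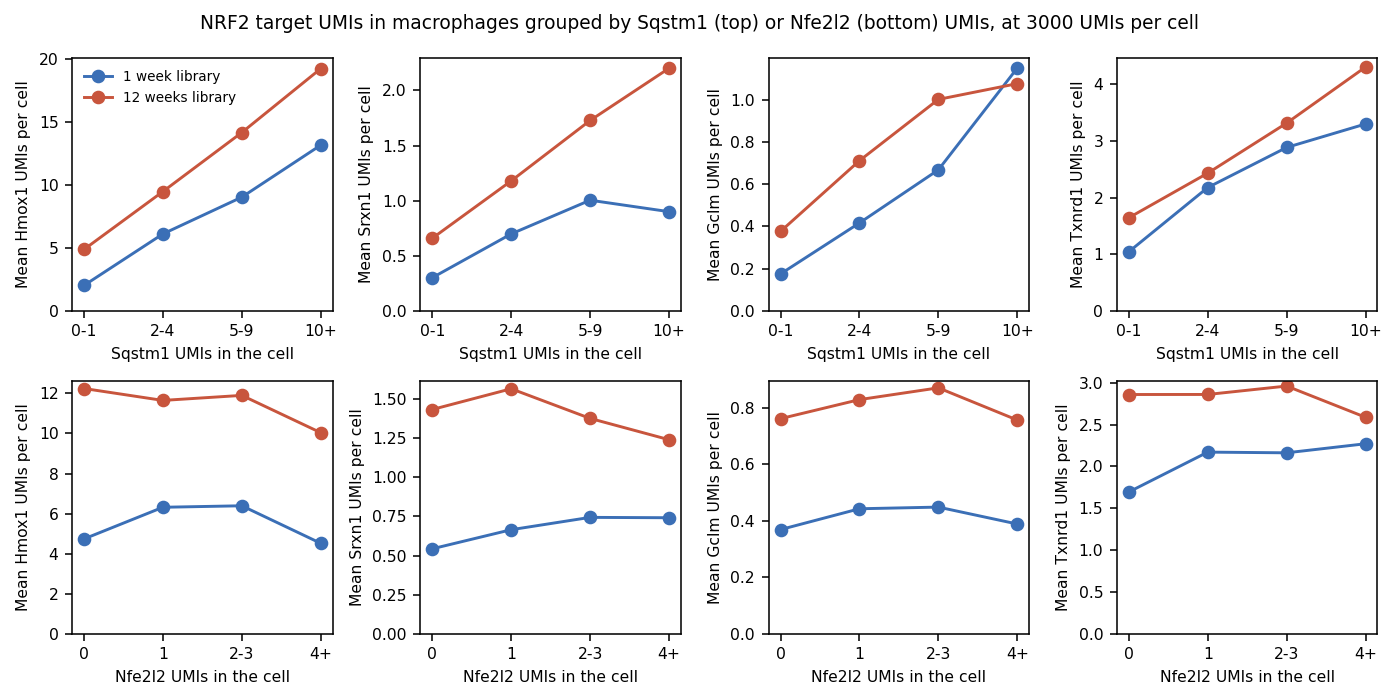
Mean UMIs per macrophage of Hmox1, Srxn1, Gclm and Txnrd1 (vertical axes, from 0) in cells grouped by their own Sqstm1 UMIs (top) or Nfe2l2 UMIs (bottom), all thinned to 3000 UMIs; blue is the 1-week and red the 12-week library, and lines join group means. Hmox1 goes from 2.02 to 13.2 and from 4.87 to 19.2 over the Sqstm1 groups, the last of which has 20 cells at 1 week.

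Part of the 1-week correlation went with a subset of 257 macrophages with low UMI counts, numbered 5 below, of which 226 were in the 1-week library. Without that subset, r of Sqstm1 with Hmox1 was 0.37 at 1 week and 0.44 at 12 weeks, and r of Sqstm1 with Txnrd1 was 0.24 and 0.33. Within single subsets of at least 50 cells in a library, r of Sqstm1 with Hmox1 was above 0 in 11 of 11, from 0.18 to 0.40 with a median of 0.33. For Nfe2l2 with Hmox1 it was above 0 in 4 of 11, with a median of -0.02, and for Mafg with Hmox1 above 0 in 11 of 11, with a median of 0.20. Subsets were described after clustering of the same cells, without the listed genes.

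Among 4092 genes detected in at least 5% of macrophages of both libraries, the 5 most like each regulator were ranked by the lower of the 2 libraries' r. For Sqstm1 they were Hmox1, Cxcl2, Txnrd1, Cdkn1a and Prdx1, with lower r from 0.45 to 0.30. For Mafg they included Hmox1, Cxcl2, Cdkn1a and Sqstm1, from 0.30 to 0.20. For Maff they were Cxcl2, a neutrophil-attracting chemokine, Ifrd1, Ppp1r15a, Plaur and Cdkn1a, from 0.29 to 0.21. For Nfe2l2 they were Tlr2, a receptor for bacterial lipoproteins, Cd83, the NF-kB subunit gene Rel, the cytokine gene Il1b and Cytip, from only 0.14 to 0.09. None of the 5 nearest to Nfe2l2 and none of the 5 nearest to Maff was a listed NRF2 target, against 3 of 5 for Sqstm1 and 1 of 5 for Mafg.

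Macrophages were divided into 7 subsets with at least 20 cells in each library, each called here by number and leading genes. They are descriptions without a test. Nfe2l2 was highest in subset 1 (Mmd, Arl11, Clec4a3), with 537.7 CPM at 1 week and 650.8 at 12 weeks, and lowest in subset 5 (Ccnb1ip1 and cell cycle genes such as Top2a), with 193.6 and 426.8. Apart from subset 5 it ranged from 334.1 to 537.7 at 1 week and from 503.7 to 650.8 at 12 weeks. The small Mafs had another order: Maff, Mafg and Mafk were all highest in subset 2 (Hspa1a, Hspa1b, Dnajb1 and Bag3, heat shock genes), in both libraries. There Maff had 232.0 and 211.6 CPM, Mafg 362.6 and 380.3 and Mafk 90.6 and 109.8, against 75.3 and 37.1, 134.9 and 118.0 and 22.5 and 21.4 in subset 1. Subset 2 was not low in Nfe2l2, at 522.4 CPM (488.4 to 558.2) and 579.8 (551.6 to 609.0), and at 1 week its interval overlapped that of subset 1. Subset 1 had the least Hspa1a, with 74.9 and 46.6 CPM, against 5593 and 7043 in subset 2.

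Sqstm1 was highest in subset 6 (Slc40a1, Slc43a2, Slc7a11) at 1 week, with 1422 CPM, and in subset 3 (Il10, Cxcl1, Clec4e) at 12 weeks, with 1959. It was lowest in subset 5, with 121.3 and 792.6. Hmox1 was highest in subset 4, which it leads, with 4060 and 5869 CPM; Sqstm1 there was 1228 and 1771. Keap1 was highest in subset 6 in both libraries, with 73.8 CPM (28 cells) and 58.7 CPM, against 25.2 and 34.7 in subset 1. Subset 6 also had the highest Srxn1, 501.7 and 657.4 CPM. Nqo1 reached at most 9.4 CPM in any subset.

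**Figure D5:**
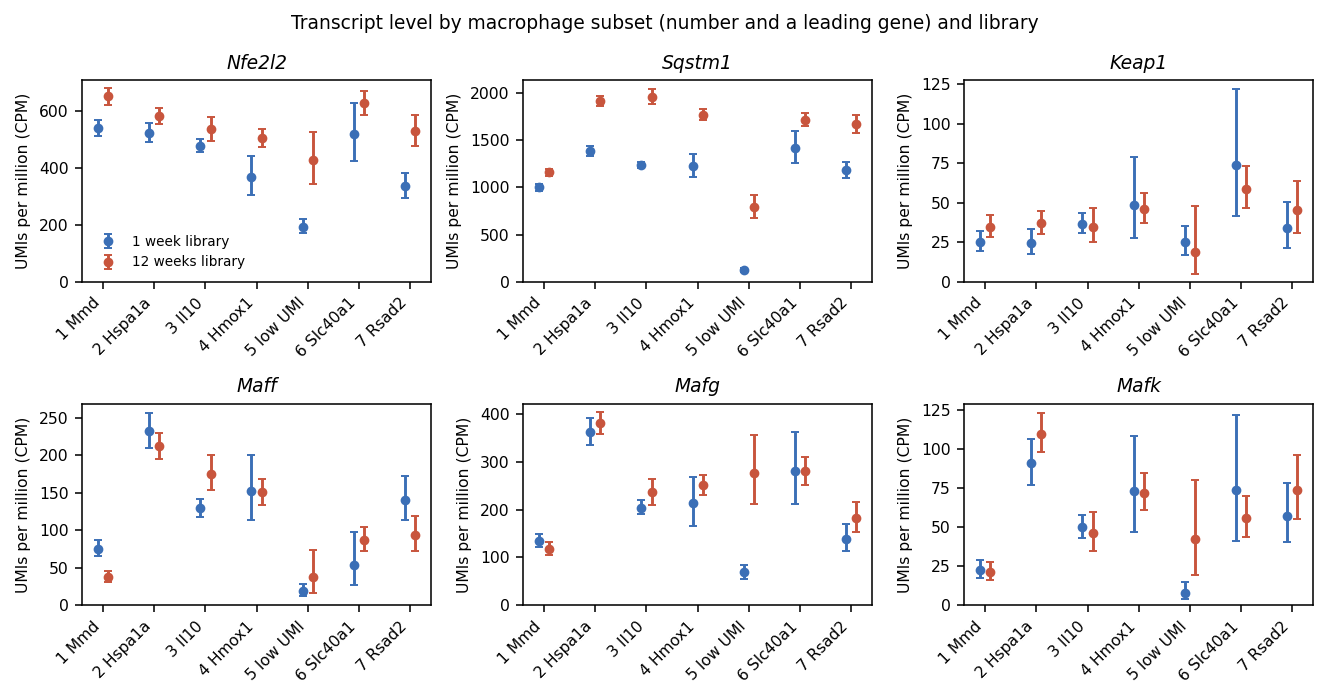
Level of 6 transcripts in CPM (vertical axes, from 0) in macrophage subsets 1 to 7 (horizontal axis, number and a leading gene or feature), with 95% Poisson intervals, for the 1-week (blue) and 12-week (red) library. Maff, Mafg and Mafk peak in subset 2, Nfe2l2 peaks in subset 1 and Keap1 in subset 6, and subset 5 has low Sqstm1 at 1 week (121.3).

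Between the time labels, 1 library each, all 7 transcripts stood at a higher level in 12-week than in 1-week macrophages. The ratio was 1.31 (1.26 to 1.36) for Nfe2l2, 1.32 (1.14 to 1.52) for Keap1, 1.56 (1.53 to 1.60) for Sqstm1, 1.09 (1.01 to 1.18) for Maff, 1.30 (1.23 to 1.38) for Mafg and 1.38 (1.23 to 1.55) for Mafk. For Nqo1, from 22 and 77 UMIs, it was 3.49 (2.15 to 5.89). Sqstm1 and Nqo1 were the 2 of 7 past 1.5-fold, where 6.43% of 9427 genes with at least 50 UMIs were that much higher, 9.73% that much lower, and the median gene had a ratio of 0.956. Without subset 5 the ratio for Sqstm1 was 1.42, under 1.5, that for Nfe2l2 was 1.23 and that for Maff was 1.00. There is no test of these ratios, and whether they follow time, the pools of mice or the preparation cannot be told apart.

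Within the 7 subsets, the 12-week value was the higher one in 7 of 7 for Nfe2l2, with ratios from 1.11 to 2.20, and in 7 of 7 for Sqstm1, from 1.16 to 6.53, the top value being subset 5 in both. Subset 5 was unlike in the libraries: 186 of 226 cells at 1 week and 18 of 31 at 12 weeks fell in a cluster of low UMI counts, and 37 and 8 in a cluster led by cell cycle genes. Without it the highest ratio was 1.58 for both Nfe2l2 and Sqstm1. It was the higher one in 5 of 7 for Mafg and in 3 of 7 for Maff, Mafk and Keap1. In other classes the ratio for Nfe2l2 was 1.13 (0.872 to 1.47) in dendritic-like cells. That for Sqstm1 was 1.03 (0.818 to 1.31) in dendritic-like cells and 0.445 (0.228 to 0.812) in B-like cells, from 54 and 14 UMIs. At 3000 UMIs per cell, however, Sqstm1 was detected in 33.3% and 35.3% of B-like cells. The summed B cell markers of these profiles stood at 34204 CPM at 1 week and 8638 at 12 weeks. That gap lay mostly in Ighm, with 28401 and 1864 CPM. Other markers went either way: Cd79a had 1029 and 1518 CPM, and Ly6d 1691 and 1127.

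The NRF2 targets were set beside these ratios. Of 24 listed targets, 23 had enough UMIs. Past 1.5-fold, 8 were higher and 0 lower, against 6.43% and 9.73% of all genes counted. The targets' median ratio was 1.30, against 0.956 over all genes. Srxn1 stood at 2.15, Hmox1 at 2.08 and Gclm at 1.86, whereas Txnrd1 was at 1.47, Prdx1 at 1.33 and Tkt, of the pentose phosphate pathway, at 0.723. Of the related bZIP factors, 0 of 7 were past 1.5-fold, with Bach1 at 1.27 and Nfe2l1 at 1.36. Immediate early and heat shock genes also stood higher, 6 of 15 past 1.5-fold, among them Hsp90aa1 at 2.39 and Hspa1b at 2.20. Hormone and other endocrine transcripts made up 19994 CPM of the 1-week and 5833 CPM of the 12-week macrophage profile. The part of stress genes and of endocrine transcripts in the ratios was not tested.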

How the data were processed

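The authors deposited whole-number UMI counts, not normalized, for 2 libraries of sorted islet CD45-positive cells. Per the submitters' processing notes the authors used Cell Ranger (3.1.0 per the file headers) and mm10; the rule for calling cells is not stated in the labels. Gene and barcode names were deposited as text (other). The members and all lists were chosen with earlier results of these data known.

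Barcodes were kept from 500 genes and 1000 UMIs upward if mitochondrial UMIs did not exceed 10%. Classes came from Leiden clustering of both libraries together (scanpy, 2000 variable genes per library, 30 components, 15 neighbours, resolution 1; 0.6 for subsets), without the listed genes. A cluster was named with at least 3 markers among its 30 leading genes. Counts summed per class and library were tested with edgeR (TMM, filterByExpr, quasi-likelihood, library as block; DESeq2 as an alternative), adjusted p under 0.05. Simulated counts came from a profile shared by all classes, with a fixed dispersion and no library effect, so they were simpler than the real profiles. For macrophages against the mean of the other classes (3117 genes), 80 of 100 genes changed 4-fold and 31 of 100 changed 2-fold were recovered, with 0 false calls. Of these changed genes, 80 and 75 passed the filter and were tested. Depth was 30264 UMIs (T-like, 1 week) to 11441581 UMIs (macrophages, 12 weeks) per profile. Intervals are exact at 95%. The named genes were the 7 members, up to 4 genes per list with the largest called change, 6 fixed genes (Hmox1, Gclm, Srxn1, Txnrd1, Bach1 and Nfe2l1) and the 5 nearest genes by correlation; Bach2, Tkt, Prdx1, Cul3, Rbx1, C1qa, Hsp90aa1 and the subsets' leading genes were added after their values were seen. Of the genes this rule names, 2 are not reported here.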

Additional observations from a re-analysis of the deposited data

Results flagged for a closer look

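Sqstm1 went opposite ways between the time labels in macrophages, where the ratio of 12 weeks to 1 week was 1.56, and in B-like cells, where it was 0.445. Both counting intervals excluded 1, but the difference itself was not tested, and the B-like value rests on 54 and 14 UMIs from 26 and 29 cells. At equal depth, 3000 UMIs per cell, Sqstm1 was detected in 33.3% of 24 and 35.3% of 17 B-like cells, with means of 0.583 and 0.471 UMIs, and at 5000 UMIs a single 1-week cell held 10 Sqstm1 UMIs. The summed B cell markers stood at 34204 and 8638 CPM in the same profiles, a gap that lay mostly in Ighm, with 28401 and 1864 CPM. Other markers went either way.

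UMIs of these genes were also counted in cells outside the comparisons. In 32 endocrine-like cells with fewer than 5 C1q UMIs, both libraries together, the levels were 19.7 CPM for Nfe2l2, 22.0 for Keap1, 115.6 for Sqstm1, 24.3 for Maff, 38.1 for Mafg and 16.2 for Mafk, each above the limit of 3.47 CPM that a count of 0 allows. Nfe2l2 there was at 3.89% and Sqstm1 at 8.69% of the macrophage level, where Apoe, a macrophage transcript, was at 0.316%. In 4 endothelial-like cells the levels were 321.0 CPM for Nfe2l2, 733.7 for Sqstm1, 642.0 for Maff and 183.4 for Mafg, above the limit of 137.6 CPM; the Maff value rests on 14 UMIs, and Apoe was at 2.004% of its macrophage level. The part of free RNA and mixed droplets in these values was not tested. The sort was meant to leave both kinds of cells out.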

How the results depend on the processing

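The 4 members called over the mean of the other classes were called under both other scalings and without the replicate block (library). They were also called with fewer than 2 C1q UMIs in the other classes, with at least 20 in macrophages, and without macrophages in other named clusters. Resolution 0.6 gave the same number of cells and UMIs in every profile, so its equal calls are no separate check. With cells of each class taken whatever their C1q, 1 member (Mafk, which then passed the filter) was called higher over the mean, and 0 over dendritic-like, 0 over B-like and 0 over T-like cells. Over dendritic-like cells 1 was called by DESeq2, 4 under the stricter cell filter (2 profiles then dropped out for too few cells) and 4 without the T-like profile of 1 week, an alternative added after seeing the data; the Nfe2l2 difference there turned to 0.0079 without the filter on low counts. The library block changed no call of a member: without it 4, 2, 4 and 4 members were called over the mean, dendritic-like, B-like and T-like cells. Detection at 3000 UMIs was higher in macrophages than in dendritic-like cells in both libraries for 7 of 7 members, but for 5 at 2000 UMIs, 5 at 5000 UMIs and 4 with at least 20 C1q UMIs, where the dendritic-like cells were the same and thinned anew. Keap1 and Nqo1 had no UMI in any of the 17 and 31 dendritic-like cells at 3000 UMIs, so any macrophage share counted as higher for them. Past 1.5-fold between time labels, 2 members fell to 1 without subset 5, also added after seeing the data.

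Over all genes, DESeq2 size factors moved the median log2 difference by 0.10 to 0.11 and total counts by -0.43 to -0.10; with total counts the share of calls that were higher fell from 68.0% to 52.4% over the mean and from 63.6% to 42.2% over T-like cells. Calls over the mean numbered 1224, but 1934 without the filter and 393 whatever the C1q; over dendritic-like cells 630, but 284 whatever the C1q and 1061 under the stricter filter; over B-like cells 1202 and 226, and over T-like cells 1090 and 160, whatever the C1q. Leaving out 1 library leaves no residual degrees of freedom and gave values without a test. The 10 to 40 cells in each lymphocyte or dendritic-like profile limit the precision.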
